A study of Mus musculus with 3 samples.

Results

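*Ucma*+*Epyc*+ chondrocytes are cartilage cells of the mouse fracture callus that carried UMIs of both *Ucma* and *Epyc*, little *Col10a1* and few of 6 genes seen in early callus chondrocytes. A UMI, or unique molecular identifier, stands for 1 captured mRNA molecule. Cells with 500 to 5000 genes, at most 10% mitochondrial UMIs, at most 5% hemoglobin UMIs and no *Ptprc* UMI were taken. Of these, the cells with at least 10 *Cnmd* UMIs and at least 10 *Ucma* UMIs per 10000 UMIs of the cell, at least 1 *Epyc* UMI, *Col10a1* under 50 per 10000 and UMIs of fewer than 3 of *Nrk*, *Matn4*, *Penk*, *Palmd*, *Zim1* and *Plscr2* were kept. The cells were thus selected on their own UMIs of these genes, and levels of the genes are given as a description. The rule found 111 cells in the day 10 library and 94 in that of day 14, or 205 among 30888 deposited cells, 23463 of which lay within the limits on genes, mitochondrial UMIs and hemoglobin UMIs.

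The callus came from C57BL/6 mice with a femoral fracture, whose treatment the labels give as none, while the study's methods describe isoflurane and buprenorphine around its operations and a steel pin placed through the marrow. Live cells negative for CD45, CD31 and TER119 were sorted before capture in droplets. Day 7, day 10 and day 14 after fracture each gave 1 library. The age and number of mice behind a library were not given in the sources used here. With 1 library a day there was no replicate check and no test of a difference was possible, and the day could not be told apart from the library. All intervals below are 95% intervals of counting error only and do not cover the spread between animals. Those of levels and ratios also leave out the spread between cells. The libraries held 9103, 8801 and 12984 deposited cells, with a median of 5056, 17370 and 15802 UMIs per cell within the limits. The day 7 library went against its sort, since 6570 of its 7017 cells within the limits had a UMI of *Ptprc*, which encodes CD45, against 6 of 6593 at day 10 and 173 of 9853 at day 14. Only 2 cells of day 7 met the rule, so the values below are those of day 10 and day 14. The libraries shared 29, 42 and 35 barcodes by pairs, and no *Ucma*+*Epyc*+ chondrocyte had a shared barcode.

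In the callus, cartilage forms between the bone ends and is later replaced by bone. Chondrocytes lay down type II collagen and aggrecan, then enlarge, switch on type X collagen and mineralize their surroundings. *Ucma* encodes a small secreted Gla protein of the upper growth plate cartilage, and *Epyc* encodes epiphycan, a small leucine-rich proteoglycan of cartilage. *Cnmd* encodes chondromodulin, a cartilage protein that hinders vessel growth. *Cxcl1* encodes a chemokine that draws neutrophils, *Serpina3n* an acute phase protease inhibitor, and *Sfrp5* a secreted Wnt antagonist.

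The sequences upstream of the 2 genes that define the cells, and of the chemokine genes *Cxcl1* and *Cxcl2* whose UMIs sat in few of them, are shown as RefSeq gives them for GRCm38.p6. Each holds the 250 bases before a transcription start on the plus strand, 5′ to 3′. Capitals mark, in the *Epyc* sequences, the letters ACAAAG or ACAATG on either strand, which SOX factors can bind, and, in the chemokine sequences, GGG and TTCC with any 3 bases between them on either strand, a core of the NF-kB site.
Ucma, chr2:4975872-4976121: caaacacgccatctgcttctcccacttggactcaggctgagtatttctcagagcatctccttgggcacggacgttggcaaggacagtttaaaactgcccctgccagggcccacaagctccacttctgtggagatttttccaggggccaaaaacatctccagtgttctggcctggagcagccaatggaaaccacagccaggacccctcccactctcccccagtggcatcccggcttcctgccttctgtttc
Epyc, start 1, chr10:97643818-97644067: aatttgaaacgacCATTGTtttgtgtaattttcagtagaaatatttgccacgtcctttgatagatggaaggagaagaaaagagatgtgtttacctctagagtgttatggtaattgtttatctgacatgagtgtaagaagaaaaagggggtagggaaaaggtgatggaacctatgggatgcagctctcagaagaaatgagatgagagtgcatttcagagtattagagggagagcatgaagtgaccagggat
Epyc, start 2, chr10:97646853-97647102: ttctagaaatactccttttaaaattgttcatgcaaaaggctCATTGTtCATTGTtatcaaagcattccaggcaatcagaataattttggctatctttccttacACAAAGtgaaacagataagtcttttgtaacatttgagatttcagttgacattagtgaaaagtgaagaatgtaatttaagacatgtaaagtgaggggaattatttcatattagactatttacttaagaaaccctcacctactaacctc
Cxcl1, chr5:90890995-90891244: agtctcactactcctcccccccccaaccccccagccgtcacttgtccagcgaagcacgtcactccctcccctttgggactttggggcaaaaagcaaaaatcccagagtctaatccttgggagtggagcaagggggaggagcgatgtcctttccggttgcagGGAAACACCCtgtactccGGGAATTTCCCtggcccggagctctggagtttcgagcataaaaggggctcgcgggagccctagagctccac
Cxcl2, chr5:90903649-90903898: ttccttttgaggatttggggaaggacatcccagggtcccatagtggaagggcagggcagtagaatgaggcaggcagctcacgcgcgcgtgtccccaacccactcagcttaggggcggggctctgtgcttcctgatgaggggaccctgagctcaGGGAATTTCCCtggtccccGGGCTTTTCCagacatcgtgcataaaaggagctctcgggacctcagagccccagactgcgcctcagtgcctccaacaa

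The *Ucma* sequence held neither set of letters. The window before *Epyc* start 1 held 1 match to the SOX letters and that before start 2 held 3, and such a match stood in 25.2% of 32851 windows of the same length in the RefSeq table. *Cxcl1* and *Cxcl2* each held 3 matches to the NF-kB letters, 2 of which overlapped in all but 1 base, and a match stood in 4.65% of the windows. Further genes were scanned but are not printed. Of these, *Serpina3n* held 1 match to the NF-kB letters, and *Pth1r* held 1 to the SOX letters before 1 of its 3 starts. *Cnmd*, *Sfrp5*, *Matn1* and *Lif* held neither set of letters. These are matches of letters and no binding was measured. *Ucma* lies at chr2:4976122-4985748, *Epyc* at chr10:97644068-97682454, *Cxcl1* at chr5:90891241-90893115 and *Cxcl2* at chr5:90903871-90905938 in the GENCODE M21 annotation of GRCm38, all on the plus strand.

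*Ucma*+*Epyc*+ chondrocytes made up 1.68% (1.39% to 2.02%, Clopper-Pearson) of the 6593 cells within the limits at day 10 and 0.954% (0.772% to 1.17%) of the 9853 at day 14. Among cells that met the *Cnmd* limit they were 3.45% (2.85% to 4.14%) of 3215 and 4.27% (3.46% to 5.19%) of 2204. The condition on the 6 early genes took away most of the *Ucma*+*Epyc*+ cells. Without it, 869 cells at day 10 and 421 at day 14 met the other limits, so that the chondrocytes kept were 12.8% (10.6% to 15.2%) and 22.3% (18.4% to 26.6%) of these. Of the 869 cells, 100 had UMIs of 2 of the 6 genes, 290 of 3 and 284 of 4, with 1 cell at 0. Of the 421 cells, 73 had UMIs of 2 genes, 134 of 3 and 117 of 4, again with 1 cell at 0. The limit of 3 genes therefore ran through a continuous distribution and not through a gap.

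The early genes seen in the chosen cells were mainly 2 of the 6. *Matn4*, a matrilin of the cartilage matrix, had UMIs in 105 of 111 cells at day 10 and 88 of 94 at day 14, and *Zim1*, an imprinted zinc finger gene, in 90 and 52. *Nrk*, a kinase gene, was seen in 9 and 15 cells, *Penk*, which encodes proenkephalin, in 1 and 6, *Palmd* in 2 and 2, and *Plscr2* in 3 and 3. As whether a gene is seen rises with depth, the rule was also run after each cell was thinned to 5000 UMIs. It then kept 391 cells at day 10 and 209 at day 14, or 12.3% and 9.61% of the *Cnmd* cells, so the number of *Ucma*+*Epyc*+ chondrocytes holds only for these libraries at their own depth.

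2 classes of cells were set beside them. The remaining chondrocytes met the limits on *Cnmd*, *Col10a1* and the early genes but not those on *Ucma* or *Epyc*, and numbered 718 at day 10 and 683 at day 14. The early-gene *Ucma*+*Epyc*+ chondrocytes met every limit on *Cnmd*, *Ucma*, *Epyc* and *Col10a1* but had UMIs of at least 3 of the 6 early genes, and numbered 758 and 327. This class was added after values had been seen. Median depth per cell was 20280 and 23050 UMIs in the *Ucma*+*Epyc*+ chondrocytes, 17930 and 19810 in the remaining chondrocytes, and 20890 and 22820 in the early-gene class. A level is the sum of a gene's UMIs in all cells of the class from that library, as counts per 1000000 UMIs (CPM).

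The cells carried chondrocyte markers. All 15 markers of the list, such as *Sox9*, *Col2a1* and *Acan*, had UMIs, though 1 of them, *Cnmd*, was part of the rule and also separates the cells compared here. With *Cnmd* included they summed to 123300 CPM at day 10 and, at day 14, to 117300 CPM, against 22630 and 19850 CPM in cells under the *Cnmd* limit. Of the cell types that the sort should remove, macrophage markers summed to 2.80 and 3.30 CPM with *C1qa* and *C1qb* at 0, and endothelial markers to 2.80 and 2.36 CPM with *Cdh5* and *Emcn* at 0. Neutrophil markers summed to 1.87 CPM at day 10, with 5 of 6 genes at 0, and to 55.2 CPM at day 14, with *Retnlg* alone at 0. The rule itself left out cells with a *Ptprc* UMI, so the macrophage and neutrophil sums do not show what the sort removed. Pericyte markers summed to 15.4 and 15.6 CPM. Osteoblast markers stood at 7253 and 5472 CPM against 29570 and 22920 CPM in the remaining chondrocytes, and hypertrophic markers at 2509 and 4170 CPM against 23890 and 23360 CPM. *Ibsp* is in both lists and made up most of both sums in the remaining chondrocytes. The hypertrophic list also holds *Col10a1*, which the rule limits. In the early-gene *Ucma*+*Epyc*+ chondrocytes osteoblast markers stood lower, at 5260 and 5043 CPM, as did hypertrophic markers, at 1503 and 2859 CPM. In the *Ucma*+*Epyc*+ chondrocytes *Col1a1* gave 13446 of 15521 osteoblast marker UMIs at day 10 and 7639 of 11604 at day 14. A single cell held 1854 *Ibsp* UMIs at day 14, so the day 14 differences from the early-gene class rest in part on 1 cell. Markers of fibroblastic progenitors, which include *Col1a1* and *Col3a1*, stood at 10330 and 6166 CPM against 16340 and 12210 CPM in the remaining chondrocytes. In the early-gene class they stood at 8645 and 7548 CPM. The part of these 3 lists in the results was not tested.

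The marker genes *Cxcl1*, *Serpina3n* and *Sfrp5* were not higher here than in the early-gene *Ucma*+*Epyc*+ chondrocytes in both libraries. *Sfrp5* had a day 10 level of 31.8 CPM (24.7 to 40.3) and a day 14 level of 72.2 CPM (61.2 to 84.5), against 34.2 and 77.0 CPM in the early-gene class and 10.2 and 43.0 CPM in the remaining chondrocytes. *Serpina3n* stood at 21.5 CPM (15.7 to 28.7) and 17 CPM (11.9 to 23.5), against 45.4 and 35.2 CPM in the early-gene class and 6.88 and 13.2 CPM in the remaining chondrocytes. *Cxcl1* stood at 86.5 CPM (74.5 to 99.9) and 84.9 CPM (72.9 to 98.2), against 238 and 68.2 CPM in the early-gene class and 44.5 and 30.7 CPM in the remaining chondrocytes. All of these genes had higher levels than in the remaining chondrocytes in both libraries, although the interval of the ratio spanned no difference for *Serpina3n* at day 14, and *Serpina3n* was lower than in the early-gene class in both. For *Cxcl1*, 1 cell held 90 of 180 UMIs at day 14, and without the cell with most UMIs its level was 66.6 and 42.7 CPM, with log2 ratios over the remaining chondrocytes of 0.58 at day 10 and 0.48 at day 14 in place of 0.96 and 1.47. After thinning to 5000 UMIs, a UMI of any of the 3 genes was seen in 33.3% and 31.2% of the *Ucma*+*Epyc*+ chondrocytes, in 40.6% and 40.7% of the early-gene class and in 14.9% and 18.9% of the remaining chondrocytes. These genes therefore did not set the chosen cells above the early-gene class, and a cell without a UMI at this depth may still express them.

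**Figure D1:**
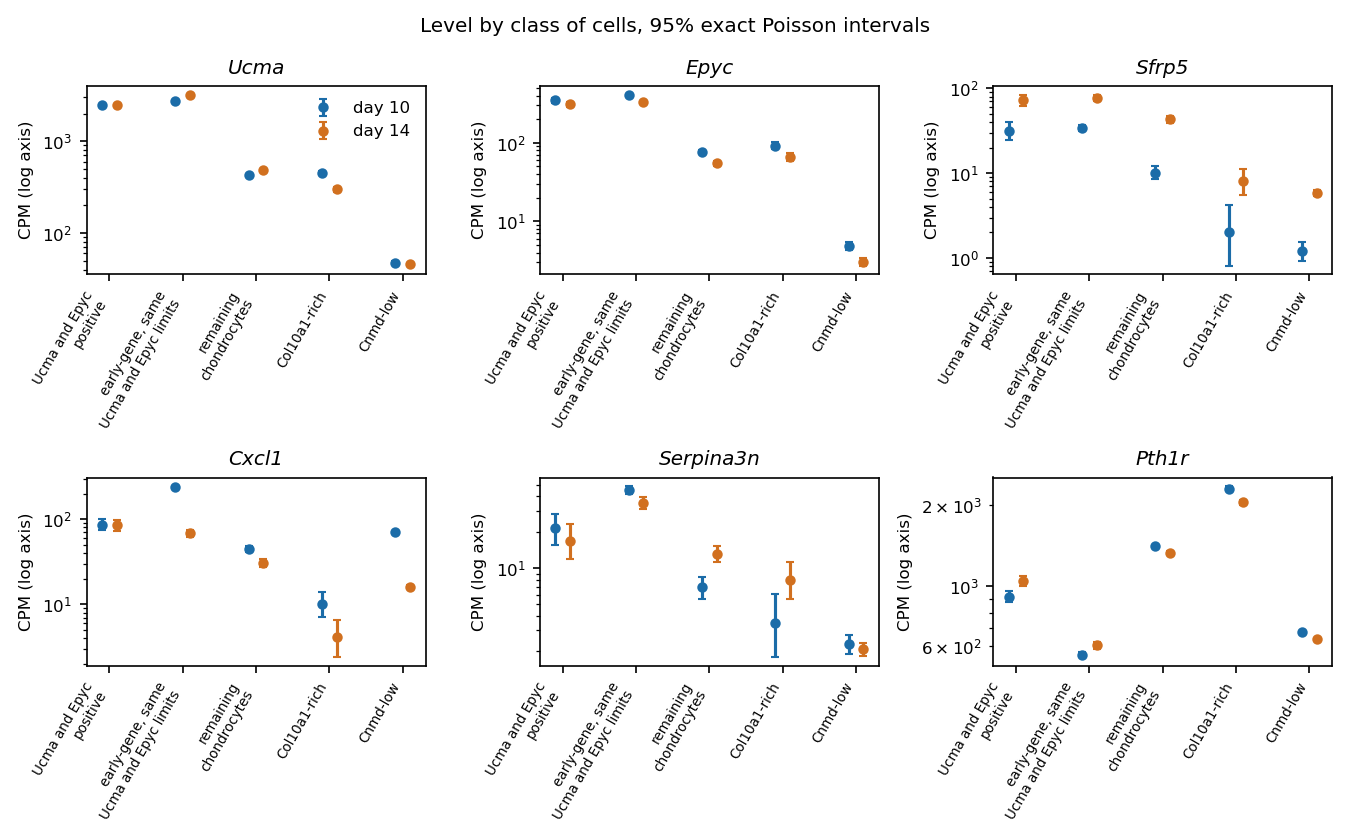
Levels of *Ucma*, *Epyc*, *Sfrp5*, *Cxcl1*, *Serpina3n* and *Pth1r* in CPM on a log axis, by class of cells, at day 10 (blue) and day 14 (orange), with exact Poisson intervals. *Col10a1*-rich cells met the *Cnmd* limit with *Col10a1* at 50 per 10000 or more, and *Cnmd*-low cells missed the *Cnmd* limit. *Serpina3n* is lower and *Pth1r* higher in the *Ucma*+*Epyc*+ chondrocytes than in the early-gene class in both libraries.

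The share of cells with a UMI was low for each of these genes. Thinned to 5000 UMIs, *Cxcl1* was seen in 16.2% of the cells (9.72% to 24.7%) at day 10 and 14.0% (7.66% to 22.7%) at day 14. In cells under the *Cnmd* limit, with a median of 15600 and 14630 UMIs before thinning, *Cxcl1* was seen in 12.8% and 4.86%, so that the day 10 share lay within its interval of that in other callus cells. *Serpina3n* was seen in 8.57% (4.0% to 15.7%) and 9.68% (4.52% to 17.6%) against 1.15% and 0.789% of the *Cnmd*-low cells, and *Sfrp5* in 13.3% (7.49% to 21.4%) and 15.1% (8.48% to 24.0%) against 0.607% and 1.31%. Thinning left out 6 of 111 and 1 of 94 cells. At their own depth the shares were 23.4% and 14.9% for *Cxcl1*, 17.1% and 22.3% for *Serpina3n*, and 18.9% and 35.1% for *Sfrp5*.

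The values at the limits of the rule were as follows. Cells with *Ucma* from 10 to 15 per 10000, just inside, numbered 37 and 29, with *Ucma* at 1258 and 1225 CPM and *Sfrp5* at 27.0 and 30.6 CPM. Cells with *Ucma* from 5 to 10, just outside, numbered 58 and 39, with *Ucma* at 751 and 722 CPM and *Sfrp5* at 9.27 and 104 CPM. Cells with exactly 1 *Epyc* UMI numbered 23 and 17, and cells without one that met all other limits 91 and 83. Within the class *Ucma* ran from 10.0 to 70.1 per 10000 with a median of 18.1 at day 10, and from 10.0 to 115 with a median of 20.3 at day 14. *Epyc* ran from 0.297 to 31.8 with a median of 2.96, and from 0.309 to 26.8 with a median of 2.15.

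Against the remaining chondrocytes, most of the listed cartilage matrix genes were higher in the *Ucma*+*Epyc*+ chondrocytes, and *Ibsp*, *Spp1*, *Bglap* and *Mmp13* were lower. Of 7736 genes with at least 100 UMIs over both classes in each library, 7 were at least 2-fold higher in both libraries (0.0905%) and 89 at least 2-fold lower (1.15%). The median log2 ratio over all these genes was −0.05 in the day 10 library and −0.06 in the day 14 library, before any list is considered. The genes that define the rule were left out of these counts, and the values describe the libraries at hand.

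The 7 higher genes were *Cxcl2*, *Matn1*, *Il17b*, *Phyh*, *Lif*, *Pxylp1* and *Igf2*. *Matn1*, which encodes a matrilin of cartilage, stood at 364 and 138 CPM against 106 and 41.2 CPM, a log2 ratio of 1.77 at day 10 and 1.74 at day 14. *Il17b*, a cytokine of the interleukin-17 family, stood at 78.0 and 50.5 CPM against 22.8 and 17.5 CPM. *Phyh*, a peroxisomal enzyme that breaks down phytanic acid, stood at 109 and 112 CPM against 42.0 and 44.0 CPM. *Lif*, a cytokine of the interleukin-6 family, stood at 47.2 and 29.7 CPM against 18.9 and 11.5 CPM. Without the 1 cell of each library that held most UMIs of the gene, these 4 stayed at least 2-fold higher in both libraries, and *Cxcl2*, *Pxylp1* and *Igf2* did not. At day 10 the log2 ratio of *Phyh* was 0.79 with at least 3 *Epyc* UMIs, and that of *Lif* 0.86 with *Ucma* at least 20. *Matn1* and *Il17b* stayed past 2-fold under either limit. In cells with 3, 4 and 5 or 6 early genes, *Matn1* stood at 450, 479 and 527 CPM at day 10 and 124, 120 and 129 CPM at day 14.

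The UMIs of the chemokine genes sat in few cells. *Cxcl2* had 178 UMIs in 12 cells at day 10, 81 of them in 1 cell, and 64 UMIs in 5 cells at day 14, 38 of them in 1 cell. Without that cell the log2 ratio of *Cxcl2* over the remaining chondrocytes moved from 2.69 to 1.84 at day 10 and from 1.88 to 0.59 at day 14. *Cxcl1* had 185 UMIs in 26 cells at day 10 and 180 UMIs in 14 cells at day 14, where 1 cell held 90. *Cxcl1* was seen in 6 of the 12 cells with *Cxcl2* and in 20 of the 99 cells without it at day 10, and in 4 of 5 and 10 of 89 at day 14. *Cxcl1* and *Cxcl2* both hold the NF-kB letters in the sequences printed above, *Lif* holds no match, and any link to these UMIs was not tested.

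Of the 89 lower genes, the 10 with the largest ratios were *Folr2*, *Bglap2*, *Ibsp*, *Bglap*, *Igfbp5*, *Tmem132a*, *Mme*, *Plxna2*, *Spp1* and *Mmp13*. *Ibsp*, which encodes bone sialoprotein, stood at 896 and 1769 CPM against 18750 and 15120 CPM, a log2 ratio of −4.39 and −3.10, and at day 14 a single cell held 1854 of its 3751 UMIs. *Spp1*, which encodes osteopontin, stood at 606 and 959 CPM against 3132 and 6108 CPM. *Bglap*, which encodes osteocalcin, stood at 1.4 and 20.3 CPM against 59.8 and 172 CPM. *Bglap2* had 0 UMIs at day 10, which at 3 counts allows up to 1.4 CPM, and 6.60 CPM at day 14, against 25.5 and 63.1 CPM. *Mmp13*, a collagenase of mineralizing cartilage, stood at 25.7 and 47.2 CPM against 179 and 242 CPM.

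The lists are described by the genes whose counting interval lay on the same side of no difference in both libraries. Over all 7736 genes, 383 lay higher (4.95%) and 520 lower (6.72%). An abundant gene has a narrow interval, which can lie clear of 0 at a small ratio, and the lists were not matched to all genes by abundance. Of 17 cartilage matrix genes tested, 13 lay higher and 3 lower, with medians of 0.35 and 0.49 on the log2 scale. Only 1 of them, *Matn1*, was at least 2-fold higher in both libraries. *Col2a1*, the main collagen of cartilage, stood at 55520 and 51990 CPM against 42070 and 35390 CPM, and *Matn3* at 3452 and 3375 CPM against 2238 and 2143 CPM. *Comp*, *Chad* and *Cytl1* were the 3 lower genes. Of 11 genes of sulfation and glycosaminoglycan synthesis, 5 lay higher and 0 lower, among them the sulfate transporter *Slc26a2* at 583 and 383 CPM against 396 and 295 CPM and *Papss2*, which makes the sulfate donor, at 443 and 449 CPM against 293 and 284 CPM.

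Of 12 hypertrophy genes, 7 lay lower and 0 higher, with a median of −0.68 and −0.47. Besides *Ibsp*, *Spp1* and *Mmp13* these were *Alpl*, *Pth1r*, *Runx2* and *Mef2c*, and not *Ihh* or *Panx3*. Osteoblast markers, mostly *Ibsp*, stood at 29570 and 22920 CPM in the remaining chondrocytes beside 38870 and 30400 CPM in the *Cnmd*-low cells. Their part in these ratios was not tested. *Alpl*, the phosphatase of mineralizing tissue, stood at 428 and 475 CPM against 931 and 915 CPM, and *Pth1r*, the receptor of parathyroid hormone-related protein, at 916 and 1047 CPM against 1406 and 1326 CPM. Of 12 metalloproteinases and inhibitors, 8 lay lower and 1 higher, with medians of −0.64 and −0.83. *Timp2*, an inhibitor, stood at 227 and 192 CPM against 370 and 420 CPM, and *Mmp16* was the higher gene at 20.6 and 18.9 CPM against 12.7 and 10.5 CPM. Of 12 small leucine-rich proteoglycans other than *Epyc*, 9 lay lower and 2 higher. *Lum*, which encodes lumican, stood at 741 and 830 CPM against 1188 and 1400 CPM, and *Prelp* was higher at 532 and 459 CPM against 394 and 327 CPM.

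Of 19 acute phase and NF-kB response genes, 4 lay higher (*Cxcl1*, *Cxcl2*, *Lif* and *Cebpb*) and 4 lower (*C1s1*, *C1ra*, *Hp* and *Cp*). Of 16 hypoxia and glycolysis genes, 7 lay higher and 0 lower, such as the lactate dehydrogenase gene *Ldha* at 854 and 1128 CPM against 682 and 864 CPM. Of 15 chondrogenic transcription factors, 3 lay higher (*Sox8*, *Zbtb20* and *Shox2*) and 3 lower (*Trps1*, *Runx2* and *Mef2c*). *Sox9*, the master factor of cartilage, stood at 718 and 514 CPM against 691 and 455 CPM. Of 19 genes of hedgehog, PTHrP, BMP and FGF signaling, 2 lay higher and 5 lower, with the receptor gene *Fgfr1* at 35.5 and 35.4 CPM against 99.0 and 83.6 CPM. The counts of higher and lower genes were 4 and 2 of 20 immediate early genes, 2 and 3 of 13 Wnt antagonists and targets, 1 and 2 of 8 Gla protein and vitamin K genes, 1 and 2 of 7 resting zone and articular genes, 2 and 0 of 13 secretory stress genes, 0 and 1 of 11 cell cycle genes and 2 and 0 of 3 MHC class II genes.

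**Figure D2:**
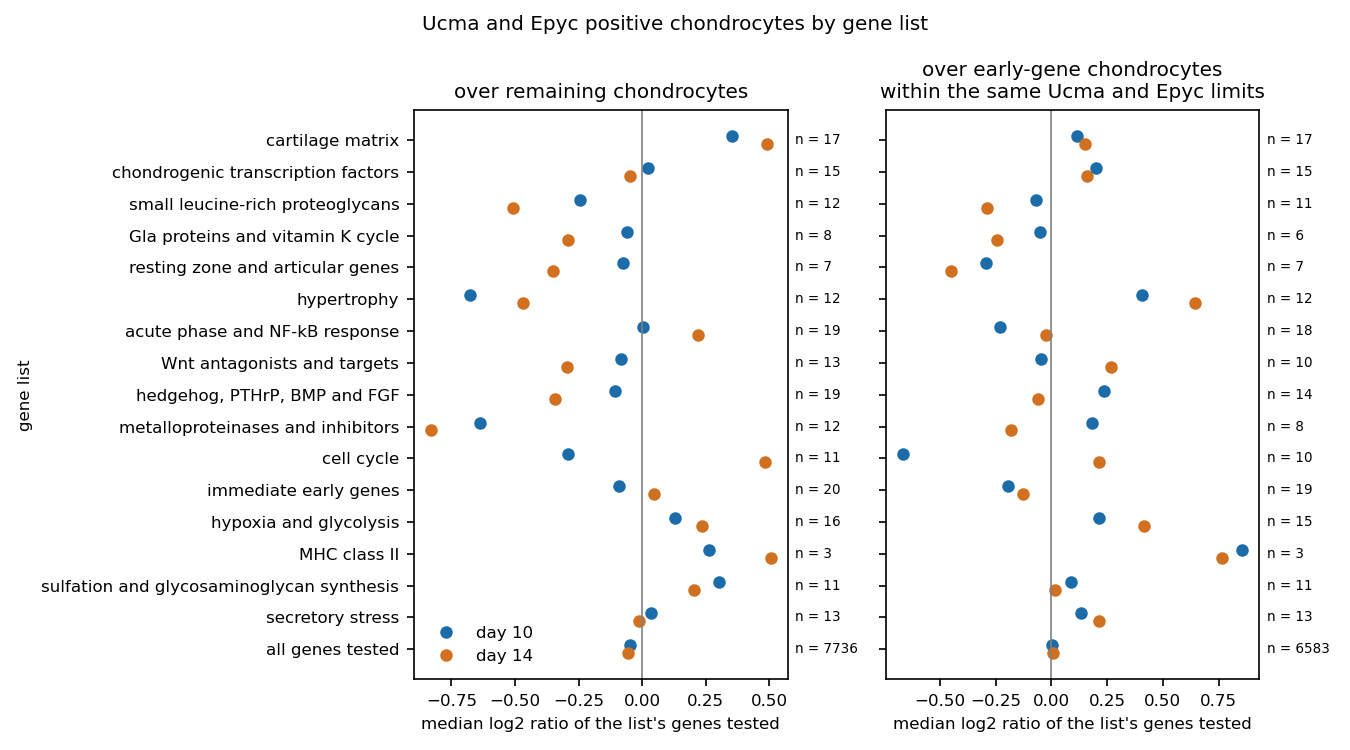
Median log2 ratio of the *Ucma*+*Epyc*+ chondrocytes over the remaining chondrocytes (left) and over the early-gene *Ucma*+*Epyc*+ chondrocytes (right), by gene list, at day 10 (blue) and day 14 (orange), with the number of genes tested beside each list. The hypertrophy list lies below 0 on the left, at −0.68 and −0.47, and above 0 on the right, at 0.41 and 0.64.

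The early-gene *Ucma*+*Epyc*+ chondrocytes differed by fewer genes. Of 6583 genes tested, 3 were at least 2-fold higher in the *Ucma*+*Epyc*+ chondrocytes in both libraries (0.0456%) and 13 at least 2-fold lower (0.197%). These counts depend on how the cells were chosen. The lower genes numbered 39 without the upper limit on genes, 22 with *Ucma* at least 20 per 10000, 6 with at least 3 *Epyc* UMIs and 1 when the rule was run on cells thinned to 5000 UMIs. The median log2 ratio over all genes tested was 0.00 at day 10 and 0.01 at day 14. The higher genes were *Unc5b*, a netrin receptor gene, *Hpgd*, which encodes a prostaglandin-degrading enzyme, and *R3hdml*. *Unc5b* stood at 30.8 and 27.8 CPM against 12.8 and 11.4 CPM, *Hpgd* at 60.8 and 91.0 CPM against 23.6 and 39.4 CPM, and *R3hdml* at 61.7 and 82.5 CPM against 20.6 and 37.1 CPM. Of these, only *Unc5b* stayed past 2-fold in both libraries without the cell of each library that held most of its UMIs.

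The lower genes with the largest ratios included *Dusp2*, *Rrad*, *Gem*, *Mme*, *Tspan13*, *Mfap4*, *Sfrp2*, *Clmn* and *Serpina3n*. *Gem*, a small GTPase gene, stood at 21.5 and 8.96 CPM against 62.3 and 31.4 CPM, and *Rrad*, of the same GTPase family, at 8.41 and 6.60 CPM against 32.4 and 19.3 CPM. When the rule was run on thinned cells the log2 ratios were no longer past 2-fold in both libraries, at −0.54 and −1.46 for *Gem* and −0.44 and −0.46 for *Rrad*, and for *Dusp2* 0.11 and −0.83. *Mme*, which encodes neprilysin, stood at 6.08 and 6.13 CPM against 14.8 and 30.2 CPM. *Mfap4* stood at 15 and 10.9 CPM against 33.5 and 25.2 CPM. *Igf2*, the fetal growth factor that was among the genes higher than in the remaining chondrocytes, stood at 78.5 and 36.3 CPM against 152 and 96.8 CPM here.

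By lists, hypertrophy genes lay on the other side of this comparison. Over all genes, 259 lay higher (3.93%) and 252 lower (3.83%) by their intervals in both libraries. Of 12 hypertrophy genes, 7 lay higher and 0 lower, with a median of 0.41 and 0.64. *Pth1r* stood at 916 and 1047 CPM against 559 and 604 CPM, *Alpl* at 428 and 475 CPM against 209 and 270 CPM, *Panx3*, a channel of the hypertrophic zone, at 319 and 395 CPM against 223 and 198 CPM, and *Sp7*, an osteoblast transcription factor, at 70.1 and 44.3 CPM against 36.0 and 29.8 CPM. *Mef2c*, *Ihh* and *Ibsp* were the other 3. Without the cell with most of its UMIs, the log2 ratio of *Ibsp* at day 14 moved from 0.93 to −0.04 and that of *Ihh* at day 10 from 0.46 to −0.07. *Col10a1*, which the rule limits in both classes, stood at 194 and 413 CPM against 131 and 181 CPM.

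Of 15 hypoxia and glycolysis genes, 9 lay higher and 0 lower, with a median of 0.21 and 0.42. *Car12*, a membrane carbonic anhydrase, stood at 92.5 and 71.7 CPM against 52.5 and 46.7 CPM, and the glucose transporter gene *Slc2a1* at 62.2 and 51.9 CPM against 46.6 and 30.8 CPM. All 3 MHC class II genes tested, of 8 in the list, lay higher. *H2-DMa* stood at 112 and 145 CPM against 61.7 and 85.4 CPM, *H2-DMb1* at 84.6 and 154 CPM against 62.0 and 95.1 CPM, and *H2-Ab1* at 23.4 and 61.8 CPM against 12.6 and 31.0 CPM. *H2-Ab1* had UMIs in 16 and 27 cells. Without the cell with most of its UMIs, its log2 ratio was 0.44 and 0.67 here, and −1.39 and −0.18 over the remaining chondrocytes. *Cd74*, the invariant chain that immune cells make along with class II, had 0 UMIs in all 111 and 94 cells, which allows up to 1.72 and 1.74 CPM. Early-gene cells, grouped by the number of early genes seen, had at most 1.80 CPM of *Cd74*. Cells with a *Ptprc* UMI had been left out, and the source of the class II UMIs was not tested. Of 13 secretory stress genes, 6 lay higher and 0 lower, with medians of 0.13 and 0.21. Of 17 cartilage matrix genes 11 lay higher and 1 lower, *Mia*, with medians of 0.11 and 0.15. The differences were small, and 0 genes of either list were past 2-fold in both libraries.

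Immediate early genes lay lower. Of 19 tested, 9 lay lower and 0 higher, with a median of −0.19 and −0.13. *Nr4a1*, an orphan nuclear receptor, stood at 258 and 128 CPM against 443 and 164 CPM, *Btg2* at 248 and 82.1 CPM against 374 and 109 CPM, and *Egr1* at 764 and 367 CPM against 873 and 511 CPM. Of 18 acute phase and NF-kB response genes, 0 lay higher and 3 lower (*Serpina3n*, *Cebpd* and *Hp*). Of 11 small leucine-rich proteoglycans, 2 lay higher and 4 lower, with *Ogn*, which encodes osteoglycin, at 274 and 130 CPM against 486 and 398 CPM.

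Of the transcription factors, 5 of 15 lay higher and 2 lower. The higher genes included *Sox8* at 21.5 and 22.2 CPM against 15.2 and 13.3 CPM and *Foxa3* at 45.3 and 53.3 CPM against 33.2 and 28.7 CPM, and the lower genes were *Sox5*, a partner of SOX9, at 79.5 and 64.1 CPM against 114 and 78.1 CPM, and *Zbtb20*. The counts of higher and lower genes were 3 and 1 of 14 in hedgehog, PTHrP, BMP and FGF signaling, 2 and 1 of 10 Wnt antagonists and targets, 3 and 2 of 8 metalloproteinases and inhibitors, 0 and 3 of 7 resting zone and articular genes, 0 and 1 of 6 Gla protein and vitamin K genes, 1 and 0 of 10 cell cycle genes and 1 and 0 of 11 genes of sulfation and glycosaminoglycan synthesis.

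All early-gene chondrocytes, with or without *Ucma* and *Epyc*, numbered 2217 at day 10 and 1210 at day 14. Of 9562 genes tested against them, 11 were at least 2-fold higher in the *Ucma*+*Epyc*+ chondrocytes in both libraries (0.115%) and 179 lower (1.87%). *H2-DMa*, which helps to load class II molecules, stood at 112 and 145 CPM against 50.9 and 67.7 CPM, and *Igfbp5*, which binds insulin-like growth factors, at 5.14 and 3.77 CPM against 49.7 and 92.2 CPM. By their intervals 427 genes lay higher (4.47%) and 654 lower (6.84%). Of 17 cartilage matrix genes 15 lay higher and 0 lower, with medians of 0.31 and 0.50 and 0 past 2-fold. Hypertrophy genes were split here, with 4 of 12 higher and 3 lower.

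Against the *Col10a1*-rich cells, 169 at day 10 and 217 at day 14, 69 of 4842 genes were at least 2-fold higher (1.43%) and 172 lower (3.55%) in both libraries. The higher genes included *C1qtnf3*, which encodes a secreted protein of cartilage, at 4629 and 3811 CPM against 850 and 599 CPM, *Ptx3*, a pentraxin of innate immunity, at 82.3 and 69.3 CPM against 15.6 and 8.26 CPM, and *Cxcl1*. By their intervals 832 genes lay higher (17.2%) and 620 lower (12.8%), and of 12 hypertrophy genes, the kind of gene that *Col10a1* belongs to, 11 lay lower and 0 higher. *Cst3*, which encodes cystatin C, stood at 1488 and 2282 CPM against 14520 and 18410 CPM. Cells under the *Cnmd* limit are a mixture, and of 11615 genes tested 262 were at least 2-fold higher in the *Ucma*+*Epyc*+ chondrocytes (2.26%) and 1769 lower (15.2%), with 932 higher (8.02%) and 3201 lower (27.6%) by their intervals.

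Within all cells that met the *Ucma* and *Epyc* limits, the levels of several genes were ordered by the number of early genes seen. That number itself depends on depth, and only the median depths were alike. At day 10 the lower quartile was 14270 UMIs in the *Ucma*+*Epyc*+ chondrocytes and 16860 in the early-gene class, with 6 of 111 and 2 of 758 cells under 5000 UMIs, and the part of depth was not tested. Cells with UMIs of 0 to 2, 3, 4 and 5 or 6 of the genes numbered 111, 290, 284 and 184 at day 10, with medians of 20280, 21810, 20340 and 20320 UMIs, and 94, 134, 117 and 76 at day 14, with medians of 23050, 22900, 23740 and 21550 UMIs. *Pth1r* stood at 916, 762, 477 and 351 CPM at day 10 and at 1047, 756, 653 and 242 CPM at day 14. *Alpl* stood at 428, 303, 171 and 114 CPM and at 475, 349, 274 and 113 CPM. *Acan*, which encodes aggrecan, stood at 5449, 5168, 4968 and 4806 CPM and at 5114, 4596, 4157 and 3427 CPM. Each of these genes was highest in the *Ucma*+*Epyc*+ chondrocytes and lowest in the cells with 5 or 6 early genes, in both libraries.

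Other genes ran the opposite way. *Ucma* itself stood at 2449, 2526, 2773 and 3000 CPM at day 10 and at 2475, 2662, 3241 and 4043 CPM at day 14. *Igf2* stood at 78.5, 107, 158 and 218 CPM and at 36.3, 61.8, 71.9 and 203 CPM. *Phyh* stood at 109, 122, 152 and 184 CPM and at 112, 131, 157 and 208 CPM, and *Serpina3n* at 21.5, 37.2, 42.5 and 63.0 CPM and at 17, 26.0, 27.3 and 65.2 CPM. The *Ucma*+*Epyc*+ chondrocytes were lowest in all of these in both libraries. *Epyc* held no such order, at 349, 412, 371 and 433 CPM at day 10 and 311, 352, 325 and 307 CPM at day 14. *Ihh*, *Lif* and *Cxcl1* were also without a steady order in either library, so the order was not general. The genes were chosen after the comparison with the early-gene class and are a description.

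**Figure D3:**
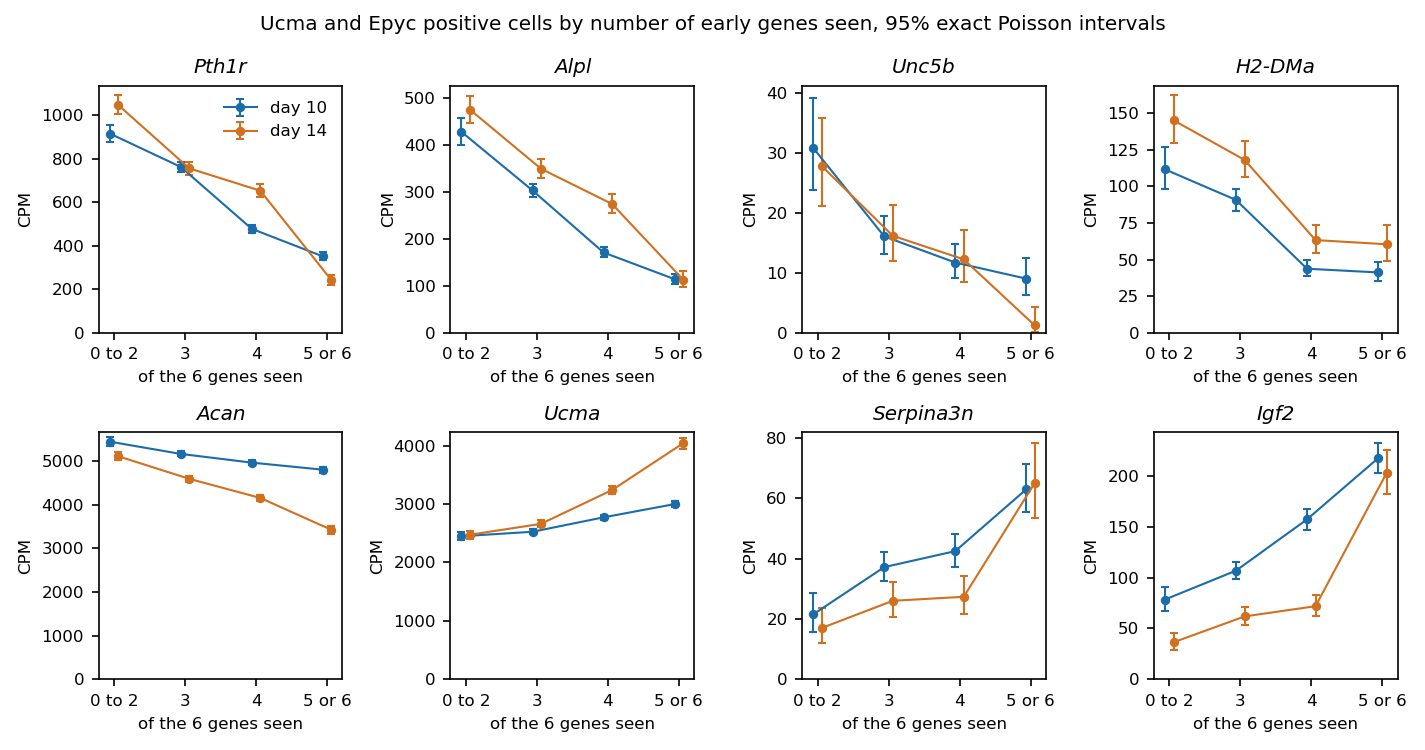
Levels in CPM, with exact Poisson intervals, of 8 genes in all cells that met the *Cnmd*, *Ucma*, *Epyc* and *Col10a1* limits, by how many of the 6 early genes had a UMI, at day 10 (blue) and day 14 (orange). The leftmost points are the *Ucma*+*Epyc*+ chondrocytes, where *Pth1r*, *Alpl*, *Unc5b*, *H2-DMa* and *Acan* are highest and *Ucma*, *Serpina3n* and *Igf2* lowest in both libraries.

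Between the days, *Hspb1*, *Stmn1* and *Dqx1* had the largest ratios toward day 14 and *Fst*, *Il11* and *Dclk1* toward day 10 within the *Ucma*+*Epyc*+ chondrocytes. Of 4133 genes with at least 100 UMIs over both libraries, 29 were at least 2-fold higher at day 14 (0.702%) and 56 at least 2-fold lower (1.35%), with a median log2 ratio of 0.01 over all of them. Several lay on the same side in the other chondrocytes. *Hspb1*, a small heat shock protein gene, had a day 10 level of 1045 CPM and a day 14 level of 4375 CPM, a log2 ratio of 2.07, beside 1.86 in the early-gene class and 1.22 in the remaining chondrocytes. *Il11*, a cytokine, stood at 128 and 25 CPM, a log2 ratio of −2.36 beside −2.98 and −3.10. *Errfi1*, a feedback inhibitor of the EGF receptor, stood at 341 and 97.6 CPM, −1.80 beside −1.44 and −1.63, and *Sfrp5* gave 1.18 beside 1.17 and 2.08.

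Other genes had a larger ratio here than in those classes, and this difference was not tested. *Ihh*, the hedgehog ligand of prehypertrophic chondrocytes, had a day 10 level of 40.2 CPM and a day 14 level of 111 CPM, while the early-gene class had 29.2 and 35.4 CPM and the remaining chondrocytes 77.2 and 125 CPM. It was seen in 24 of 111 and 45 of 94 cells, and without the cell with most of its UMIs stood at 27.9 and 98.1 CPM. *Ramp1*, a receptor-modifying protein for calcitonin family peptides, stood at 43.9 and 116 CPM beside 36.0 and 55.2 CPM in the early-gene class, and *Hmgcs1*, an enzyme of cholesterol synthesis, at 47.7 and 117 CPM beside 54.1 and 64.8 CPM. *Fst*, which encodes the activin binding protein follistatin, stood at 53.3 and 9.43 CPM beside 41.6 and 40.9 CPM in the early-gene class, and without its top cell at 35.5 and 8.12 CPM. *Bmp2*, a bone morphogenetic protein, stood at 46.3 and 14.6 CPM beside 22.7 and 18.5 CPM.

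A few cells carried some of these ratios. *Dqx1* had 62 of its 96 UMIs at day 14 in 1 cell, and *Stmn1* and *Cenpa*, genes of dividing cells, had UMIs in 15 and 14 of 94 cells. *F13a1*, which encodes a coagulation factor subunit, stood at 180 and 43.9 CPM in 34 and 20 cells. *Dclk1*, *Bst2*, *Irs2*, *Lgals3bp* and *H19* were also lower at day 14, with log2 ratios of −2.06, −2.03, −1.98, −1.73 and −1.61, and *H2-Ab1* and *Sdf2l1* higher, with 1.4 and 1.31. By lists, 5 of 19 immediate early genes were at least 2-fold lower at day 14 and 1 higher, (median log2 ratio −0.77), and 3 of 14 acute phase genes were lower. *Matn1* and *Cytl1* were the 2 of 17 cartilage matrix genes that were at least 2-fold lower.

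**Figure D4:**
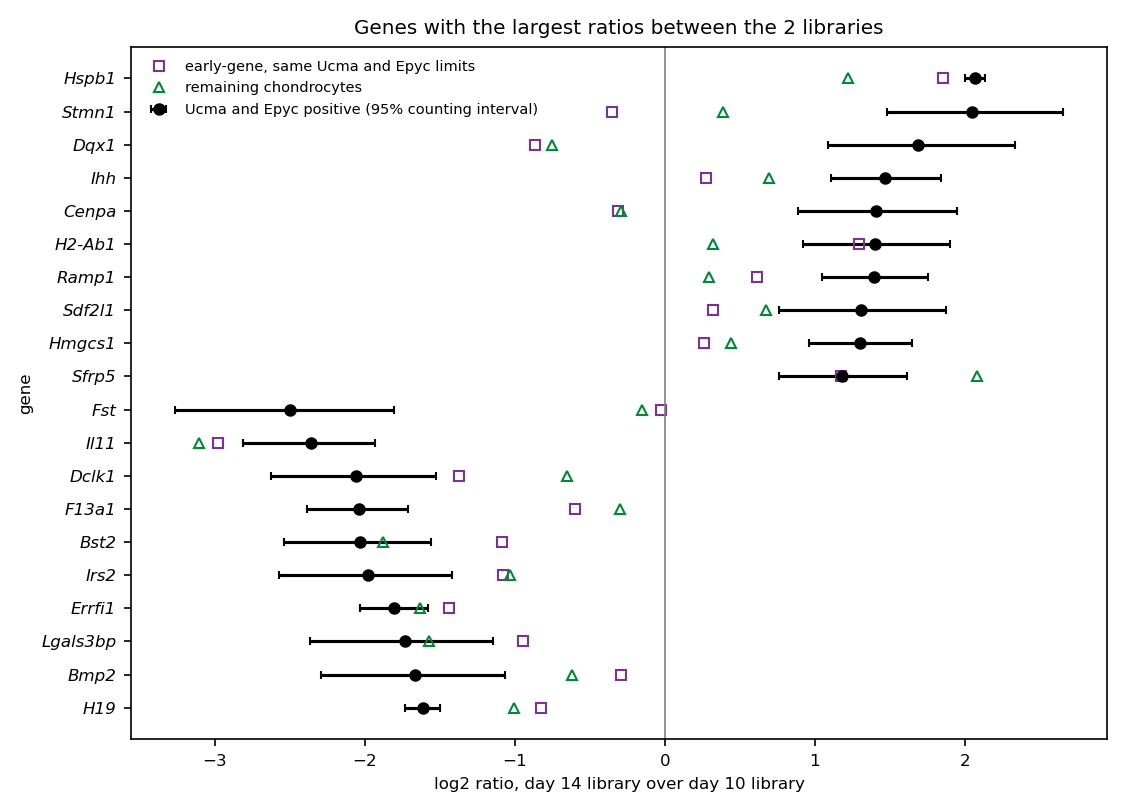
Log2 ratio of the day 14 library over the day 10 library for the 10 genes with the largest ratio in each direction within the *Ucma*+*Epyc*+ chondrocytes (black, with counting intervals), beside the early-gene *Ucma*+*Epyc*+ chondrocytes (squares) and the remaining chondrocytes (triangles). *Hspb1* and *Il11* lie on the same side in all 3 classes, whereas *Fst* is near 0 outside the *Ucma*+*Epyc*+ chondrocytes.

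Among the single cells, *Mgp* varied most beyond depth in both libraries. By the variance of Pearson residuals, the leading genes in both libraries were *Mgp*, *Fn1*, *Hspb1*, *Malat1*, *C1qtnf3*, *Col1a1*, *Col2a1*, *Dnajb1*, *Comp* and *Cst3*. The residuals allow for a negative binomial spread with a theta of 100. A variance near 1 matches that spread, and sampling alone gives less than 1 for abundant genes. The median over 3837 genes was 1.26 at day 10 and 1.28 at day 14, and *Mgp*, which encodes matrix Gla protein, reached 37.2 and 31.0. *Mgp* ran from 6.62 to 1124 per 10000 UMIs of the cell with a median of 144 at day 10, and from 3.28 to 1067 with a median of 86.8 at day 14. *Fn1*, which encodes fibronectin, ran from 9.72 to 500 with a median of 67.5, and from 12.9 to 487 with a median of 48.8. *Hspb1* had no UMI in some cells and reached 75.3 at day 10, with a median of 2.13, and 176 at day 14, with a median of 34.7.

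Correlations with *Ucma* were computed in cells selected on *Ucma*, *Epyc* and *Cnmd*, which cuts the range of these genes, and most genes have few UMIs per cell. The highest Spearman correlation with *Ucma* was 0.445 over 111 cells and 0.437 over 94 cells, and the 5 genes with the highest value in the weaker library were *Phyh*, *Scrg1*, *Fbln2*, *Cnmd* and *Ptx3*. *Phyh* had 0.31 and 0.33, and *Scrg1*, a gene of cartilage differentiation, 0.45 and 0.29. *Epyc* and *Ucma* had 0.04 and 0.10. *Mgp* ran against *Col2a1* at −0.34 and −0.29, while *Fn1* ran with *Col2a1* at 0.55 and 0.31. The cells of a library share its preparation and these values carry no test.

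**Figure D5:**
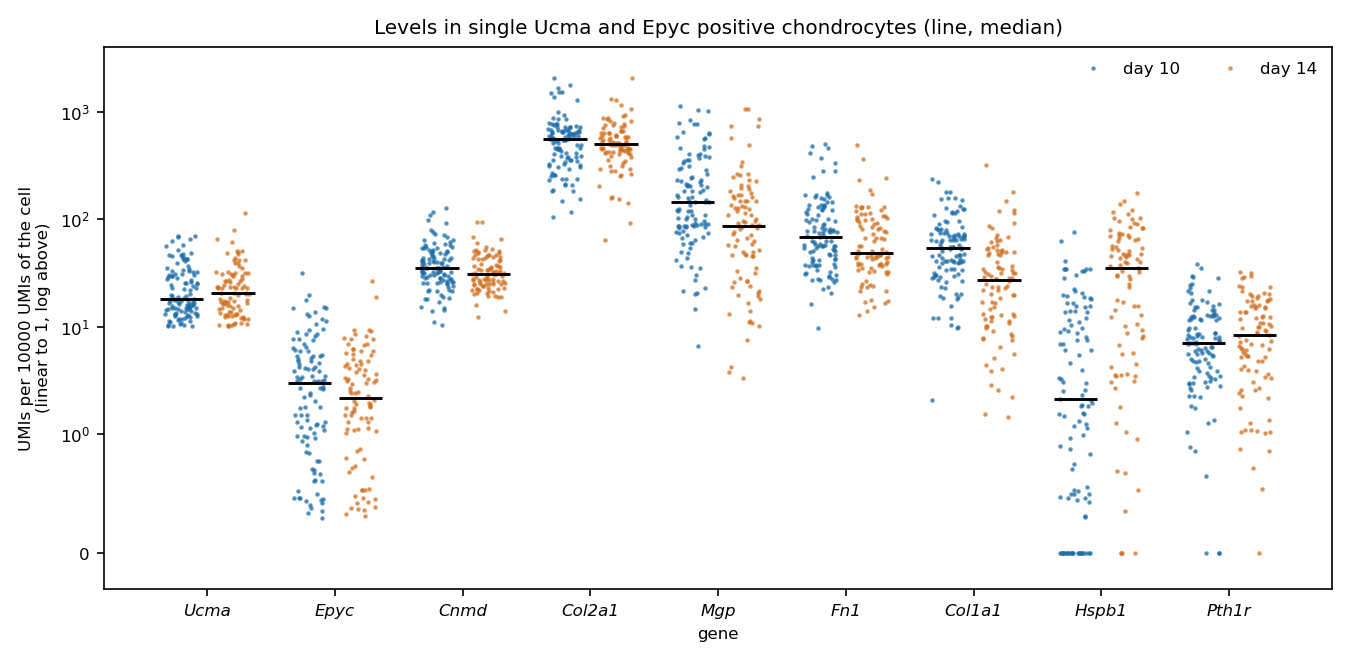
Level of 9 genes in each *Ucma*+*Epyc*+ chondrocyte, as UMIs per 10000 UMIs of the cell on an axis that is linear to 1 and logarithmic above, at day 10 (blue, 111 cells) and day 14 (orange, 94 cells), with the median as a line. *Mgp* and *Hspb1* spread most widely, and the median of *Hspb1* is 2.13 at day 10 and 34.7 at day 14.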

How the data were processed

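Counts of UMIs per gene and cell were used as the authors deposited them, without normalization, for 3 droplet libraries. The labels name a 3′ protocol and Cell Ranger 3.0, the matrix header names 3.1.0, and the study's methods name other versions of both. The genome was mm10, and GENCODE M21 held 32158 of 32285 gene identifiers (99.6%). The members and gene lists were chosen with earlier results of these data known.

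Cells were classed by the rule given in the report. UMIs were summed by class and library and scaled to CPM, with exact Poisson intervals. Ratios had exact binomial and shares Clopper-Pearson intervals. A count of 0 was read as allowing 3 counts. No p-values were computed. A gene was called when it differed at least 2-fold in the same direction in both libraries and had at least 100 UMIs. Named were the genes of the rule and lists, up to 15 higher and 10 lower genes per comparison, 10 per direction between days, the 10 most variable genes and 5 by correlation with *Ucma*, and genes singled out for a few cells were chosen after their values were seen. A gene that this rule named is not reported here. Cells were thinned to 5000 UMIs for shares, with a fixed seed.

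Scrublet called 10 of 7334 cells at day 10 and 1 of 10813 at day 14, under 0.5%, and so did not work as a doublet filter. No cell was removed. None of these was a *Ucma*+*Epyc*+ chondrocyte. Python 3.11.15, numpy 2.4.6, scipy 1.17.1, pandas 2.3.3 and scanpy 1.11.5 were used. The procedure was tested on simulated counts of 7736 genes for the comparison with the remaining chondrocytes. It called 100 of 100 genes set 4-fold higher, 97 of 100 set 4-fold lower and 0 of 7537 unchanged genes. The simulated counts were drawn from class sums with sampling error only and without spread between cells. They therefore do not give the rate of false calls in the real counts.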

Additional observations from a re-analysis of the deposited data

Results flagged for a closer look

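Some genes lay on opposite sides of no difference in the day 10 and day 14 libraries, relative to the early-gene *Ucma*+*Epyc*+ chondrocytes, with both counting intervals clear of 0. Whether the days differ was not tested, since each had 1 library. The log2 ratio of *Cxcl1* was −1.46 at day 10 and 0.32 at day 14, and without the 1 cell that held most of its UMIs the day 14 value was −0.68. The log2 ratio of *Spp1* was 0.36 at day 10 and −0.29 at day 14, that of *Fn1* 0.43 and −0.062, and that of *Col1a1* 0.39 and −0.17.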

How the results depend on the processing

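No paired analysis was possible because each day had 1 library, and no library was left out. Of 700 gene ratios computed under the alternatives, 538 moved by less than their counting interval, 153 moved by more and 9 changed sign. Of 172 counts and shares, 92 stayed the same and 80 moved, a count by more than 1.5-fold or a share out of its interval.

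Membership followed the limits and depth. With *Ucma* at least 5 per 10000, 169 cells at day 10 were kept, and the share of *Cnmd* cells was 5.26% and 6.03%. With *Ucma* at least 20, 50 and 49 cells were kept (1.56% and 2.22%), 175 genes and 17 list genes were lower than in the remaining chondrocytes, and against the early-gene class 6 genes were higher and 22 lower, with 2 and 0 list genes. With at least 3 *Epyc* UMIs, 69 cells at day 10 were kept (2.15%, and 2.95% at day 14), 16 list genes were lower than in the remaining chondrocytes, and 6 genes and 0 list genes lower than in the early-gene class. With none of the 6 early genes, 1 and 1 cells were left (0.0311% and 0.0454%), and without that condition 869 and 421 (27.0% and 19.1%). After thinning to 5000 UMIs, 391 and 209 cells (12.3% and 9.61%) were kept, 1 gene was lower than in the early-gene class, with 1 list gene higher and 0 lower, and 17 genes were higher at day 14. Fewer early genes are seen in thinned cells by construction. With no upper limit on genes, 39 genes were lower than in the early-gene class.

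Against the remaining chondrocytes, 19 genes were higher and 265 lower with at least 20 UMIs, 2 and 25 with at least 500 UMIs (1 and 6 list genes), 47 and 297 at 1.5-fold (13 and 25 list genes), and 2 and 20 at 3-fold (6 list genes lower). Median ratio scaling gave 11 higher. Against the early-gene class the counts were 17 and 89 (1 list gene higher) with at least 20 UMIs, 0 and 2 (1 list gene lower) with at least 500, 32 and 64 (7 and 8 list genes) at 1.5-fold, and 0 and 1 (0 list genes lower) at 3-fold, and the mean over cells gave 8 higher. Between the days, 233 genes were higher and 327 lower with at least 20 UMIs, and 162 and 255 at 1.5-fold.

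Chosen after seeing the data, leaving out cells above the 90th percentile of UMIs kept 59 cells at day 14 and gave 11 genes higher than in the early-gene class, 5 and 1 list genes higher and lower, and 28 genes lower at day 14. Leaving out the cell with most UMIs of each gene gave 4 genes higher than in the remaining chondrocytes and 1 higher than in the early-gene class. The share of cells with *Cxcl1* was 7.45% at day 14 at 2000 UMIs, that with *Serpina3n* 17.1% and 22.3% at own depth, and that with *Sfrp5* 6.42% at day 10 at 2000 UMIs and 35.1% at day 14 at own depth.

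Signs changed for these log2 ratios, and the cause was not tested. *Sfrp5* over the early-gene class was 0.24 and 0.26 with *Ucma* at least 20, 0.25 at day 14 with 3 *Epyc* UMIs and 0.64 at day 10 after thinning, and over the remaining chondrocytes −0.007 at day 14 after thinning. After thinning, *Bglap* over the remaining chondrocytes was 0.58 at day 14 and *Dusp2* over the early-gene class 0.11 at day 10. *Tspan13* over the early-gene class was 0.005 at day 10 with *Ucma* at least 20, and *Cxcl1* −0.68 at day 14 without its top cell.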
